A study of Mus musculus with 4 samples.

Results

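The genes described here control whether mineral is laid down in a matrix. They are 10 genes, chosen by name for their known role, with earlier results of these data known, and 9 of them are among the 23930 amplicons of the table. The 6 promoters of mineral deposition are Alpl, Phospho1, Slc20a1, Slc20a2, Ibsp and Dmp1, and the 4 inhibitors are Enpp1, Ank, Spp1 and Mepe. No amplicon name carried the symbol Phospho1, and this gene was not analysed here. Of the other 9 genes, 7 had 1 RPM or more (RPM being an amplicon's reads scaled to the depth of its library) in 2 or more libraries and were tested, and Dmp1 and Mepe fell below that limit.

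The cells were progenitors cultured from subcutaneous tissue of C57BL/6 mice. Cells of both groups carried floxed Gnas, a gene form flanked by the sites that Cre recombinase cuts. The mutant libraries (genotype Gnas-/-) came from cells infected with the adenovirus Ad-Cre, and the control libraries (genotype wild type) from cells infected with Ad-GFP. All cells then spent 7 days in osteogenic medium, which contains agents that drive bone formation in culture. There were 2 mutant and 2 control libraries, of 13483518 to 18455811 reads. The labels give neither the share of cells in which Cre acted nor the number of mice, or whether mice were pooled. The p-values below thus speak of library-to-library spread alone, which for the mutants may be technical. The virus and the loss of Gnas cannot be told apart. Gnas, the gene of the stimulatory G protein alpha subunit, was not analysed here, and its level could therefore not serve to check the genotype labels.

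The mutants were close to each other and the controls were not. Of 11638 genes tested, 11 differed by over 4-fold between the mutants on the log2(RPM + 1) scale, against 507 between the controls. Mutants 1 and 2 differed at 545 and 655 genes from control 1, and at 701 and 700 genes from control 2. The stromal genes Pdgfra, Thy1, Ly6a and Dcn were present throughout, with 92.1 RPM or more in every library. Others of the same list of 10 were lower or varied. Dpt had 666 and 430 RPM in the mutants against 19.0 and 58.1 RPM in the controls. Cd34 had 8.42 and 12.6 RPM against 0.054 and 7.19 RPM. Lum had 6.83 to 25.2 RPM, and Dpp4 had at most 1.19 RPM. The 18 macrophage markers summed to 172 and 127 RPM in mutants 1 and 2, and to 250 and 1108 RPM in controls 1 and 2. Of these, Gpnmb made up most of the sum outside control 2. Without it the sums were 33.7 and 20.7 RPM in the mutants against 52.1 and 1070 RPM in the controls. Of the 18 markers, 5 were at 0 in both mutants, among them the defining markers Adgre1, Ptprc and Mrc1, and Adgre1 was at 0 in control 1 too. Other markers were as high in the mutants as in control 1 or higher. Csf1r, the gene of the receptor for macrophage growth factor, had 2.01 and 1.68 RPM in the mutants against 1.08 and 14.9 RPM in the controls, and Aif1 had 3.49 and 3.64 RPM against 0 and 4.15 RPM. Sex-linked transcripts differed between the groups and between the controls. Xist, the transcript of the inactive X chromosome, stood at 395 and 419 RPM in the mutants against 165 and 0 RPM in the controls. Ddx3y, a gene of the Y chromosome, had 26.9 and 12.5 RPM in the mutants against 61.4 and 124 RPM in the controls. Control 2 thus had Y-linked reads and no Xist read, whereas the other libraries had both. The part of this difference in the results was not tested.

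Mineral grows where phosphate is plentiful and pyrophosphate, its main small-molecule inhibitor, is scarce. Enpp1 encodes the ectoenzyme that makes pyrophosphate from nucleotides outside the cell, and Ank a membrane protein through which pyrophosphate or its precursor leaves the cell. Alpl encodes tissue-nonspecific alkaline phosphatase, which splits pyrophosphate into phosphate. Phospho1 encodes a phosphatase that frees phosphate inside matrix vesicles, and Slc20a1 and Slc20a2 encode sodium-dependent phosphate transporters. Ibsp, Spp1, Dmp1 and Mepe encode acidic, phosphorylated matrix proteins of the small integrin-binding glycoprotein family. Bone sialoprotein (Ibsp) and DMP1 can seed crystals, whereas osteopontin (Spp1) and acidic peptides of MEPE bind to crystals and slow their growth. Macrophages and osteoclasts also make osteopontin.

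The glycoprotein genes lie side by side on the plus strand of chromosome 5. In the GENCODE M21 annotation of GRCm38, Dspp, Dmp1, Ibsp, Mepe and Spp1 follow each other in that order within 270.3 kb. These are positions of the genes, since the sources used here give no position of the amplicons. The promoters of 3 members are shown because their genes gave the largest contrasts: Ibsp had no read in either control, and Spp1 and Enpp1 differed the most between the controls. Each runs 5′ to 3′ from 250 bases before to 50 bases after the RefSeq start (GRCm38.p6). They are Ibsp at chr5:104299037-104299336 on the plus strand, Spp1 at chr5:104434861-104435160 on the plus strand (the upstream of 2 listed starts), and Enpp1 at chr10:24712110-24712409 on the minus strand. Capitals mark matches, on either strand, to TGACG (the core of the cAMP response element) or TGTGGT (a RUNX motif).
Ibsp: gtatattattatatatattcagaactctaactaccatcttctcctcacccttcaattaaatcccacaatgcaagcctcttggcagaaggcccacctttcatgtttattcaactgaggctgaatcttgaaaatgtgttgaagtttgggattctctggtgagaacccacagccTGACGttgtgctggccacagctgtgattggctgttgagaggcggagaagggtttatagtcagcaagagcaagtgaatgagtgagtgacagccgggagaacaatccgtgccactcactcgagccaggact
Spp1: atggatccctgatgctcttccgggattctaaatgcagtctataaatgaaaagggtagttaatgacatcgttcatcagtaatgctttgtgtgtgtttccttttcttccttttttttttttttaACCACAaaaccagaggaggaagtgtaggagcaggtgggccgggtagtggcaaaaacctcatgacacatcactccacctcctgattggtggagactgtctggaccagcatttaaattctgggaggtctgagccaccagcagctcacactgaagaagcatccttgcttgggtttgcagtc
Enpp1: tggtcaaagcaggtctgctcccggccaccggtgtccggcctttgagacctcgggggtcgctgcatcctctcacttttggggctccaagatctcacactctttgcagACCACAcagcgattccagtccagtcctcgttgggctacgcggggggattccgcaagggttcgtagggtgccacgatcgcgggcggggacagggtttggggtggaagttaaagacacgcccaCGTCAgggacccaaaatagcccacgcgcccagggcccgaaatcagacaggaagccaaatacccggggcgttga

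The Ibsp window held TGACG once, beginning 79 bases before the start. The Spp1 window held the RUNX motif once, as ACCACA on the strand shown, beginning 128 bases before the start. The Enpp1 window held both, TGACG beginning 23 bases and the RUNX motif beginning 144 bases before the start. Of 32851 RefSeq promoter windows of the same length, 20.8% held TGACG and 16.8% held TGTGGT. None of the 3 windows held the full cAMP response element TGACGTCA (1.79% of all windows), the AP-1 motif TGANTCA (7.81%) or the GLI motif TGGGTGGTC (0.253%). TGACG is part of TGACGTCA, so these 2 searches overlap. The matches describe letters only, and binding was not measured.

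The promoters of mineral deposition did not move one way. Alpl and Ibsp were higher in both mutant libraries than in both controls, Slc20a1 and Slc20a2 were lower, and Dmp1 was barely detected. Among the inhibitors, Spp1 was lower in both mutants, while Enpp1 and Ank lay between the 2 controls. None of the 7 tested members passed limma's test on log2(RPM + 1) at a Benjamini-Hochberg adjusted p of 0.05, where 2.3% of all 11638 tested genes were called. At an unadjusted p below 0.05 there were 4 (Slc20a1, Slc20a2, Ibsp and Spp1), against 17.9% of all genes. On whole reads recovered from the RPM values, edgeR's quasi-likelihood test called 0 of the 7 (0.799% of all genes) and DESeq2 called 3, namely Ibsp, Slc20a1 and Spp1 (9.37% of all genes). Ibsp is in the unadjusted and the DESeq2 counts, but it entered the test through the mutant libraries alone. Its direction was thus fixed by the limit on low values.

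**Figure D1:**
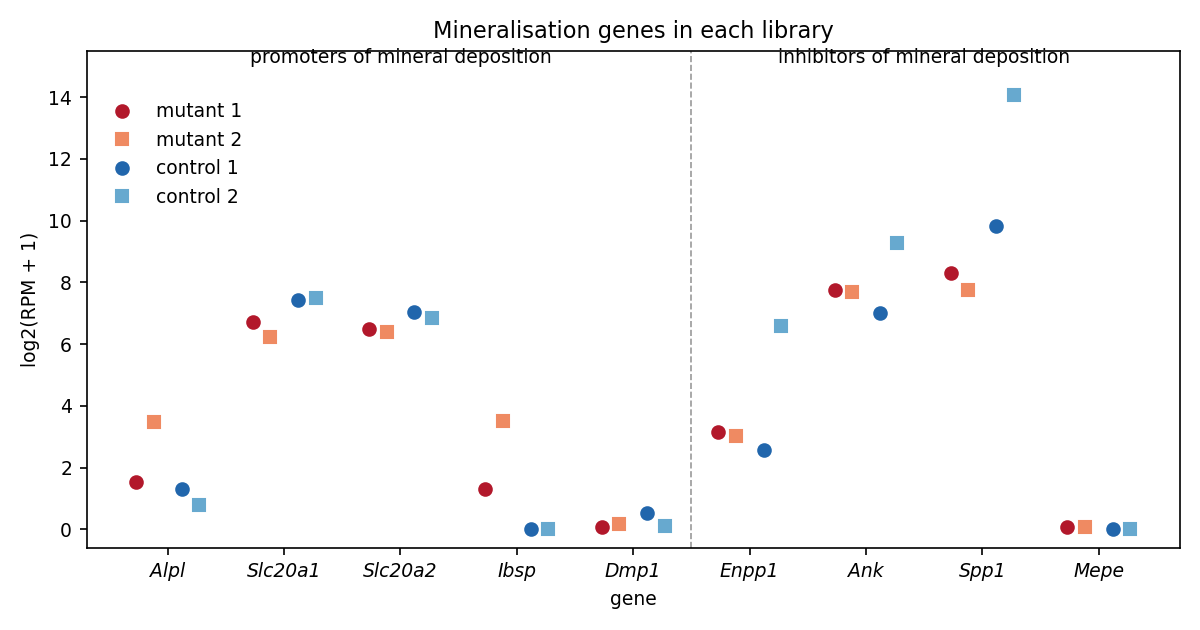
Level of each of the 9 measured members as log2(RPM + 1), with 1 point per library and the mutant libraries left of the controls. Promoters of mineral deposition stand left of the dashed line and inhibitors right of it. Spp1, Enpp1 and Ank were highest in control 2, and Alpl and Ibsp were highest in mutant 2.

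Alkaline phosphatase mRNA was low throughout. Alpl (chromosome 4, 137741733 to 137796384, minus strand) had 1.89 RPM in mutant 1 and 10.2 RPM in mutant 2, against 1.46 RPM in control 1 and 0.742 RPM in control 2. Mutant 2 alone stood well above the rest, and mutant 1 was close to control 1. The counting intervals of mutant 1 (1.3 to 2.65 RPM, exact Poisson, 95%) and control 1 (0.964 to 2.13 RPM) overlapped. Such intervals cover counting error only, since amplicon reads are not independent molecules. The group means were 6.03 ± 5.85 RPM in the mutants and 1.103 ± 0.51 RPM in the controls (SD, n = 2 each), a 5.47-fold ratio. The log2 fold change on the log2(RPM + 1) scale, which understates the change of low genes, was 1.46 (SE 0.70, limma adjusted p = 0.362).

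Bone sialoprotein mRNA was read in the mutant libraries alone. Ibsp (chromosome 5, 104299171 to 104311469, plus strand) had 26 reads (1.49 RPM) in mutant 1 and 153 reads (10.3 RPM) in mutant 2, against 0 reads in either control. A count of 0 allows up to 3 reads, which is 0.163 RPM in control 1 and 0.222 RPM in control 2. Set against 3 reads over the control group, the pooled mutant level was at least 59-fold higher, and that of mutant 1 alone at least 15.9-fold higher. The limma log2 fold change of 2.41 (SE 0.76) had an adjusted p of 0.201. The mutants differed from each other by 6.92-fold, and DESeq2 on whole reads gave an adjusted p of 0.000109 where edgeR gave 0.144. Ibsp entered the test through the mutant libraries alone, so its direction there was fixed by the limit on low values. In such bulk samples, fewer cells of a type and less RNA per cell cannot be told apart.

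The phosphate transporter genes were lower in both mutants than in both controls. Slc20a1 (chromosome 2, 129198764 to 129211616, plus strand) had 105 and 74.0 RPM in mutants 1 and 2, against 172 and 179 RPM in controls 1 and 2. Both mutants stood below both controls, at 89.47 ± 21.9 RPM in the mutants and 175.5 ± 4.59 RPM in the controls (SD, n = 2 each). The control mean was 1.96 times the mutant mean. The log2 fold change was -0.99 (SE 0.24, limma adjusted p = 0.133), the smallest adjusted p of the 7 tested members. Slc20a2 had 88.0 and 83.3 RPM in the mutants against 132 and 115 RPM in the controls. Its groups did not overlap either, and the control mean was 1.44 times the mutant mean (log2 fold change -0.52, SE 0.20, adjusted p = 0.275). Of all tested genes, 21.1% had both mutants below both controls and 30.6% had both mutants above both controls. Among the 7 members these were 3 (Slc20a1, Slc20a2 and Spp1) and 2 (Alpl and Ibsp). Ibsp could only be among the latter, since it entered the test through the mutant libraries alone.

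Dmp1 and Mepe, genes of late osteoblasts and osteocytes, were near the limit of detection. Dmp1 had 1 and 2 reads in mutants 1 and 2, against 8 and 1 reads in controls 1 and 2, which is at most 0.433 RPM. Mepe had 1 read in each mutant and none in either control. Both fell below the limit on low values and were not tested, so no difference in either gene was assessed.

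The pyrophosphate genes Enpp1 and Ank did not separate the groups, and both were highest in control 2. Enpp1 (chromosome 10, 24637914 to 24712159, minus strand) had 7.79 and 7.14 RPM in mutants 1 and 2, against 4.88 RPM in control 1 and 96.3 RPM in control 2. Control 2 was 19.7 times control 1, and the mutants lay just above control 1. The log2 fold change was -1.50 (SE 1.28, limma adjusted p = 0.598). Without control 2 its sign turned, to 0.53 (SE 0.33, adjusted p = 0.335), and without control 1 it was -3.52 (SE 0.26, adjusted p = 0.000404). These fits rest on 1 control library, which is assumed to vary like the mutants.

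Ank (chromosome 15, 27466677 to 27594909, plus strand) had 215 and 206 RPM in mutants 1 and 2, against 129 RPM in control 1 and 616 RPM in control 2. Again both mutants lay between the controls, and control 2 was 4.79 times control 1. The log2 fold change of -0.42 (SE 0.72, limma adjusted p = 0.805) turned to 0.71 without control 2. Without control 1 it was -1.54. Which control was kept therefore set the direction for both pyrophosphate genes.

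Osteopontin mRNA was lower in the mutants than in either control, by an amount that differed between the controls. Spp1 (chromosome 5, 104435118 to 104441050, plus strand) had 312 and 216 RPM in mutants 1 and 2, against 906 RPM in control 1 and 17344 RPM in control 2. Its amplicon took 0.0312% and 0.0216% of the reads in the mutants, against 0.0906% and 1.73% in the controls. The group means were 264.0 ± 68.1 RPM in the mutants and 9125 ± 11600 RPM in the controls (SD, n = 2 each), so the control mean was 34.6 times the mutant mean. Control 1 alone was 3.43 times the mutant mean. The log2 fold change was -3.93 (SE 1.35, limma adjusted p = 0.232) with all libraries. It was -1.80 without control 2 and -6.06 without control 1. These fits rest on 1 control library, assumed to vary like the mutants, although control 2 was 19.1 times control 1.

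Each fit with a control left out rests on 1 control library, assumed to vary like the mutants. Slc20a1 and Spp1 were lower in the mutants in both fits, and Ank changed direction. These directions were fixed in advance. Both mutants lay below both controls for Slc20a1 and Spp1, and between the controls for Ank. The fold change of Slc20a1 was -0.96 without control 2 and -1.01 without control 1. That of Ibsp had to be the same without either control, since both held no read. It was 3.50 without mutant 1 and 1.32 without mutant 2.

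**Figure D2:**
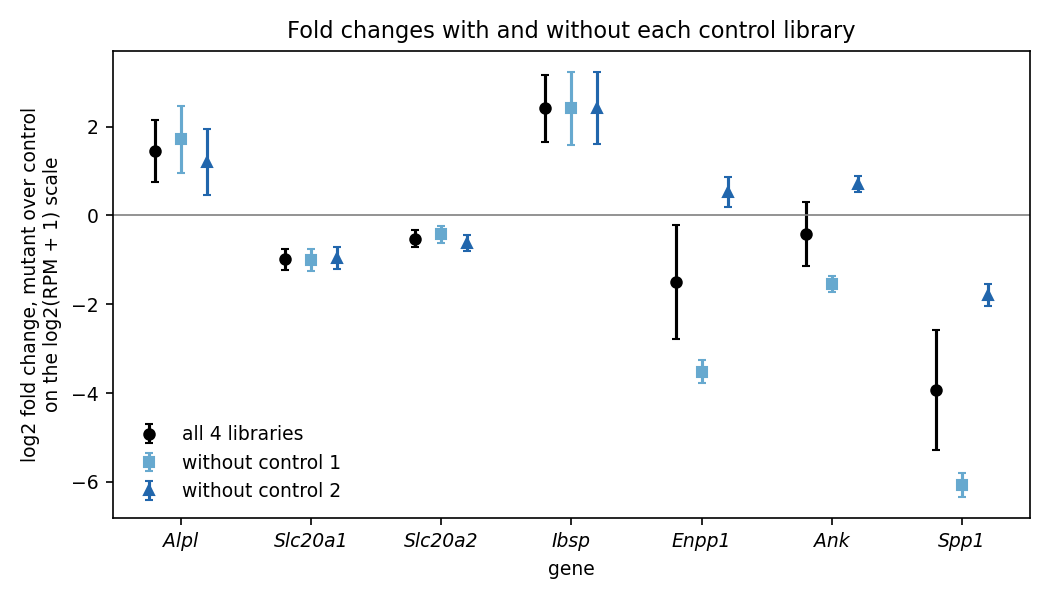
Log2 fold change of the 7 tested members, mutant over control, on the log2(RPM + 1) scale, with bars of 1 standard error, from all 4 libraries and with either control left out. Enpp1 and Ank lie above 0 without control 2 and below 0 otherwise, whereas Slc20a1, Slc20a2 and Spp1 stay below 0 and Alpl and Ibsp above it. These signs follow from whether the mutants lay between the controls or outside them. Bars of the fits with a control left out assume that the remaining control varies like the mutants.

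The 3 tested inhibitors were all over 4-fold higher in control 2 than in control 1 on the log2(RPM + 1) scale, whereas none of the 4 tested promoters was. This was true of 275 genes in all, 2.36% of those tested. Ranked by that difference among 11638 genes, Spp1 was number 19, Enpp1 number 29 and Ank number 201. Markers of other cell types were high in the same library. Lyz2, the lysozyme gene of macrophages, had 20.8 and 10.4 RPM in mutants 1 and 2, against 33.9 and 822 RPM in controls 1 and 2. The leukocyte membrane protein gene Laptm5 had 0 and 0.067 RPM in the mutants against 1.03 and 68.7 RPM in the controls. Of 7 endothelial markers, 4 were highest in control 2. Among these the adhesion gene Pecam1 had 1.83 and 1.48 RPM in the mutants against 1.41 and 24.5 RPM in the controls. Cdh5, also among these, had 5.90 and 12.1 RPM in the mutants against 1.25 and 23.7 RPM in the controls, so its mutants lay above control 1. The angiopoietin receptor gene Tek was highest in the mutants, with 5.61 and 12.2 RPM against 4.01 and 4.38 RPM in the controls, and Kdr was lowest in control 2. Of 18 macrophage markers, 14 were highest in control 2. Gpnmb was lowest there, with 139 and 106 RPM in the mutants against 198 and 41.1 RPM in controls 1 and 2. C1qa, C1qb and C1qc were not highest in control 2 either, and had at most 0.704 RPM in any library. The part of macrophages and endothelial cells in the Spp1, Enpp1 and Ank values was not tested.

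Mutant 2 carried the higher values of Alpl and Ibsp. Ranked by the difference of mutant 2 from mutant 1 among 11638 genes, Ibsp was number 6 and Alpl number 16. Ibsp was 1 of 11 genes (0.0945%) that stood over 4-fold higher in mutant 2. Number 12 was Smpd3, the gene of a sphingomyelinase needed for normal bone mineral, and number 19 was Col10a1, the gene of the collagen of mineralising cartilage. Smpd3 had 1.32 and 8.15 RPM in mutants 1 and 2, against 0.054 and 0.816 RPM in controls 1 and 2. Col10a1 had 1.26 and 7.54 RPM in the mutants and no read in the controls. Sp7, which encodes the osteoblast transcription factor osterix and was named after its values were seen, had 0.401 and 1.62 RPM in the mutants and no read in the controls. For these 5 genes mutant 2 was highest and mutant 1 next. Of the 20 genes that led this ranking, 14 were lowest in mutant 1, and 7 were over 2-fold higher in mutant 2 than in each other library.

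**Figure D3:**
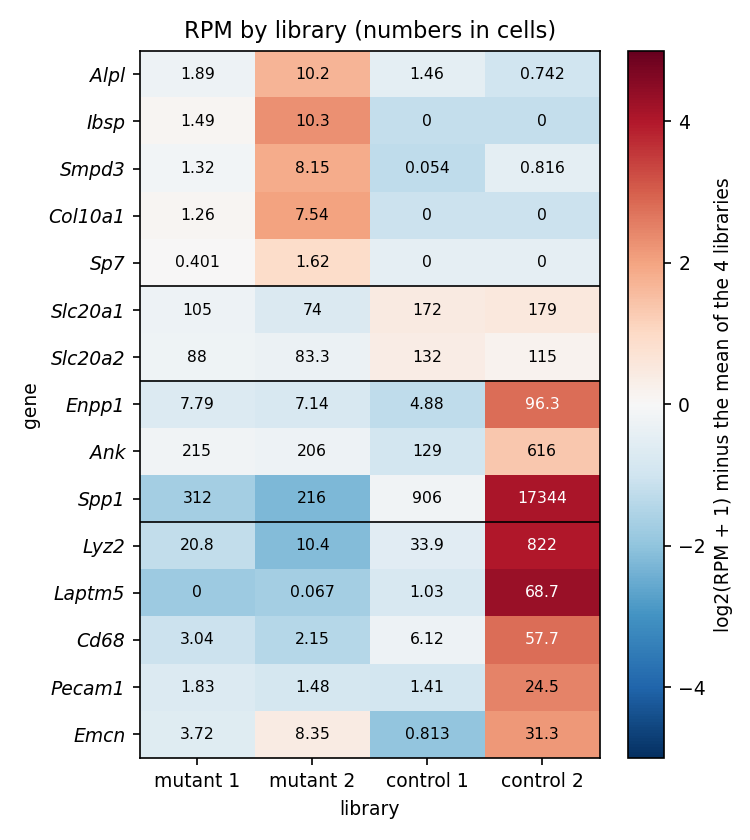
Members and other genes by library, with mutants left of controls. Colour is log2(RPM + 1) minus the gene's mean over the 4 libraries, and the number in each cell is RPM. The top block is highest in mutant 2, the second is lower in both mutants, and the third is highest in control 2. The fourth holds macrophage (Lyz2, Laptm5, Cd68) and endothelial (Pecam1, Emcn) markers, highest in control 2. Other markers of these lists are not drawn, among them Gpnmb, lowest in control 2, and Tek, highest in mutant 2.

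The ratio of a promoter to an inhibitor within a library was compared between libraries, where the efficiency of each amplicon cancels. The ratio of Alpl to Enpp1 was 0.243 in mutant 1 and 1.42 in mutant 2, against 0.30 in control 1 and 0.00771 in control 2. It was highest in mutant 2, but mutant 1 lay below control 1, so the groups overlapped. The ratio of Slc20a1 to Ank was 0.487 and 0.36 in the mutants against 1.34 and 0.29 in the controls, again with overlap. That of Slc20a2 to Ank overlapped too, at 0.409 and 0.405 in the mutants against 1.03 and 0.187 in the controls. The ratio of Slc20a1 to Spp1 was 0.336 and 0.343 in the mutants against 0.19 and 0.0103 in the controls. It was the only one of the 4 ratios whose groups did not overlap, and it was higher in the mutants. Slc20a1 itself was lower in the mutants (mean 89.47 RPM against 175.5 RPM in the controls). The higher ratio thus came from the still lower Spp1 (mean 264.0 RPM against 9125 RPM), and it restates that difference. The 4 pairs were a choice, and other pairs were not computed.

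Other genes of mineral metabolism were read from 6 lists. Counted over all genes tested, 201 rose and 67 fell, with a median log2 fold change of 0.08. Of all tested genes, 17.9% had an unadjusted p below 0.05 in limma and DESeq2 called 9.37%, the shares to hold beside the counts of each list. On whole reads edgeR called 0 genes of any of the 6 lists (0.799% of all genes). Of 12 tested genes of pyrophosphate, ATP and adenosine handling 0 passed (limma, median -0.26), 4 had an unadjusted p below 0.05 and DESeq2 called 3. The nearest was Adora2a, an adenosine receptor gene, with 11.5 and 8.69 RPM in the mutants against 1.63 and 1.93 RPM in the controls (log2 fold change 1.99, adjusted p = 0.0611). The receptor gene Adora2b had 1.78 and 1.35 RPM against 4.66 and 4.60 RPM (-1.14, adjusted p = 0.18). Among relatives of Enpp1, Enpp5 had 145 and 129 RPM in the mutants against 52.4 and 25.3 RPM in the controls (1.88, adjusted p = 0.0888). Enpp3, whose product also hydrolyses nucleotides, had 0.229 and 1.08 RPM in the mutants against 2.71 and 24.2 RPM in the controls (-2.60, adjusted p = 0.252). Like Enpp1, Enpp3 was highest in control 2.

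Of 7 tested genes of phosphate transport and its hormonal control 0 passed (limma, median -0.10), 2 had an unadjusted p below 0.05 and DESeq2 called 2. Over all tested genes the last 2 shares were 17.9% and 9.37%. Galnt3, whose product protects the phosphate hormone FGF23 from cleavage, had 2.86 and 1.55 RPM in the mutants against 0.054 and 0.148 RPM in the controls (log2 fold change 1.51, adjusted p = 0.142). Fgfr1, the gene of a receptor of that hormone, had 360 and 337 RPM against 1008 and 513 RPM (-1.04, adjusted p = 0.239). Vdr, the vitamin D receptor gene, had an adjusted p of 0.389. Stc1, the gene of the hormone stanniocalcin, had 17.8 and 19.4 RPM in the mutants against 0.433 and 41.7 RPM in the controls (adjusted p = 0.703). Its controls lay on either side of the mutants, as for Enpp1 and Ank.

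Of 11 tested matrix vesicle and phosphocholine genes 0 passed (limma, median -0.11), 0 had an unadjusted p below 0.05 and DESeq2 called 0. Smpd3 was nearest (log2 fold change 1.73, adjusted p = 0.31), and Pcyt1a, Anxa6 and the choline kinase gene Chka had adjusted p = 0.467, 0.486 and 0.522. Of 9 tested genes of other mineral-binding and mineral-inhibiting proteins 0 passed (limma, median 0.13), 4 had an unadjusted p below 0.05 and DESeq2 called 2. The last 2 shares over all tested genes were 17.9% and 9.37%. Fetub, a relative of the mineral inhibitor fetuin-A, had 1.26 and 1.75 RPM in the mutants against 8.34 and 6.90 RPM in the controls (-1.78, adjusted p = 0.0784). Col1a2, which encodes a chain of the main collagen of bone, had 7507 and 7512 RPM against 3843 and 3184 RPM (1.10, adjusted p = 0.226). Tnfrsf11b, the gene of the osteoclast inhibitor osteoprotegerin, had 122 and 86.7 RPM against 12.5 and 52.8 RPM (1.95, adjusted p = 0.232). Fam20c, the gene of the kinase that phosphorylates the small integrin-binding glycoproteins, had 10.7 and 12.9 RPM against 5.26 and 7.12 RPM (0.84, adjusted p = 0.275).

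Of 9 tested osteoblast and osteocyte regulators, 1 rose, 1 fell and 7 did not pass (limma, median 0.20), where 2.3% of all tested genes were called. At an unadjusted p below 0.05 there were 6 of the 9, against 17.9% of all genes, and DESeq2 called 4, against 9.37%. Dlx5, a homeobox gene of bone-forming cells, rose to 45.0 and 40.7 RPM in the mutants, against 0 and 0.593 RPM in the controls (log2 fold change 5.12, adjusted p = 0.0176). Dlx5, like Ibsp, Smpd3, Col10a1 and Galnt3, reached the limit on low values in the mutant libraries alone, so its direction among the tested genes was fixed by that limit. Pdpn, the podoplanin gene, an early osteocyte marker that fibroblasts also express, fell to 271 and 243 RPM in the mutants, against 803 and 964 RPM in the controls (-1.77, adjusted p = 0.0347). Each fit with a control left out rests on 1 control library, assumed to vary like the mutants. There the log2 fold change of Dlx5 was 5.45 without control 2 and 4.78 without control 1, and that of Pdpn -1.64 and -1.90. Neither passed without mutant 1 or without mutant 2, where 0 of all genes passed, and edgeR on whole reads called 0 of the 9. Mef2c had 8.82 and 13.4 RPM in the mutants against 1.73 and 2.52 RPM in the controls (1.94, adjusted p = 0.0794), and Runx2, the central regulator of osteoblasts, 60.1 and 74.3 RPM against 40.4 and 35.0 RPM (0.81, adjusted p = 0.175). Of 9 tested receptors of the glycoproteins 0 passed (limma, median 0.09), 2 had an unadjusted p below 0.05 and DESeq2 called 1. Itgb3, a chain of the osteopontin receptor, had 5.67 and 8.49 RPM in the mutants against 15.8 and 42.5 RPM in the controls (-1.76, adjusted p = 0.186). Its partner chain Itgav had 177 and 161 RPM against 70.3 and 129 RPM (0.82, adjusted p = 0.291). Itga4 and Itga8 had adjusted p = 0.271 and 0.318.

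**Figure D4:**
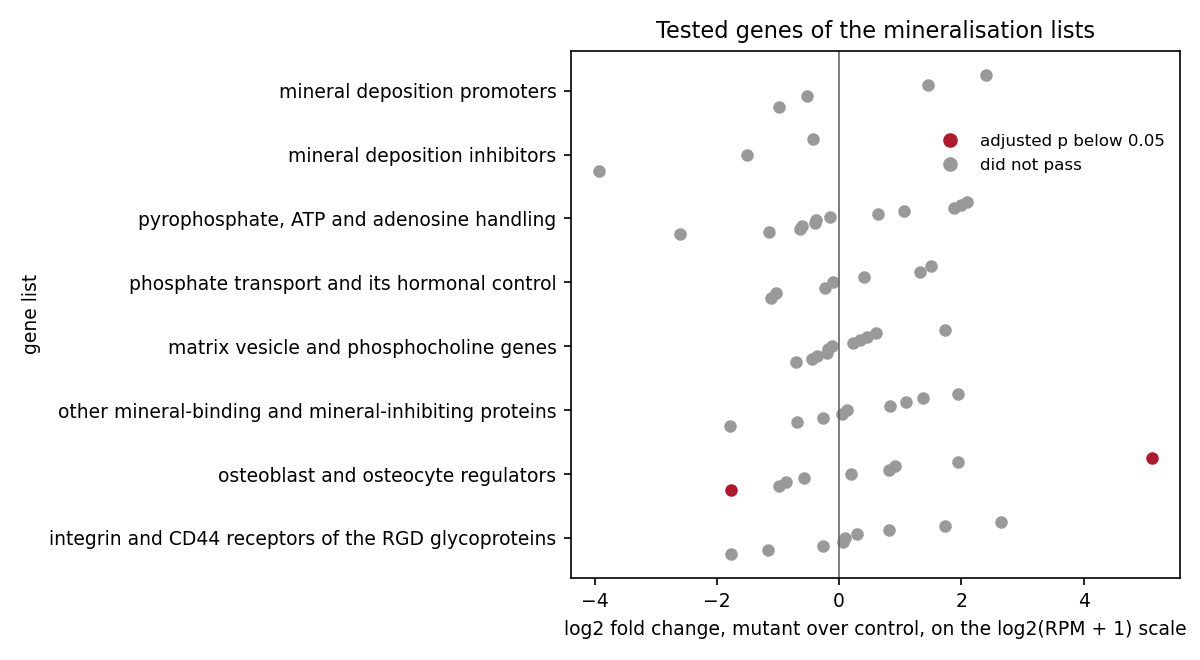
Log2 fold change, mutant over control, on the log2(RPM + 1) scale, of every tested gene of the member groups and of the 6 other lists, with 1 point per gene. Only Dlx5 (5.12) and Pdpn (-1.77), in red, passed the threshold among the genes plotted.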

How the data were processed

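Messenger RNA was measured in 4 libraries (2 mutant, 2 control). Per the labels' protocols, an Ion AmpliSeq mouse transcriptome panel was run on an Ion Chef, so a value reads 1 amplicon per gene. Values in the deposited table are RPM, which the authors obtained by scaling each amplicon's reads to the depth of its library. No aligner, counter, build or filter is named in the labels. Symbols were taken from the amplicon names.

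Low RPM values came in equal steps, and 100% of non-zero values gave whole reads within 0.01 read. Depths were 17460018 and 14847959 reads (mutants 1 and 2) and 18455811 and 13483518 reads (controls 1 and 2). Genes that reached 1 RPM in 2 or more libraries entered limma 3.58.1 in R 4.3.3 (eBayes with a trend, two-sided) on log2(RPM + 1), with Benjamini-Hochberg adjustment over 11638 genes and a threshold of 0.05. The test was checked on reads drawn with known changes. Alternatives were pseudocounts of 0.5 and 5, edgeR 4.0.16 and DESeq2 1.42.0 on the whole reads (93 and 1091 genes called), a filter at 5 RPM or none, scaling by TMM, by median of ratios or by quantiles, omission of the trend or of each library in turn, and the replicate number as a block. Figures used matplotlib 3.10.9.

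The members and lists were chosen with earlier results of these data known. The rule for named genes was all members, then of each pathway list every gene past the threshold and, up to 4 in all, those with the smallest unadjusted p, and of each marker list up to 4 with the highest mean RPM. Adgre1, Ptprc, Mrc1, C1qa, C1qb, C1qc, Pdgfra, Cd34, Lum, Dpp4, Calcr, Acan, Hapln1, Csf1r, Aif1, Kdr, Xist, Ddx3y and Sp7 were named after their values were seen. Promoter windows are from RefSeq (GRCm38.p6), where 9 of the 10 members were matched by symbol.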

Additional observations from a re-analysis of the deposited data

How the results depend on the processing

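Among all genes, 268 passed in the main test. The count was 74 with no filter on low values, 93 with edgeR and 1091 with DESeq2. It ranged from 0 (without mutant 1 or without mutant 2) to 2411 (without control 1) when each library was left out. Among the 7 tested members, 0 passed in the main test, 3 with DESeq2, and 0 to 4 when each library was left out. With the replicate number as a block, 424 genes and 0 members passed. The numbers are not known to pair the libraries: the mutant and control differences between numbers 1 and 2 correlated at 0.164 across genes. Without control 2 the log2 fold change reversed to 0.53 for Enpp1 and to 0.71 for Ank, and without control 1 it was -3.52 and -1.54. No other alternative reversed a member. Over their alternatives the log2 fold changes ranged from 0.48 to 2.43 for Alpl, 0.99 to 9.53 for Ibsp, -1.23 to -0.74 for Slc20a1, -0.62 to -0.42 for Slc20a2 and -6.06 to -1.80 for Spp1. Adjusted p ranged from 0.0142 to 0.797 for Slc20a1, 0.000109 to 0.697 for Ibsp and 7.63e-05 to 0.846 for Spp1. The cause of these differences was not tested. Each fit with a library left out has 1 library in that group, assumed to vary like the other group. A filter at 5 RPM left out Alpl and Ibsp. Depth limits Dmp1 and Mepe, which had at most 8 reads in a library.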

Other observations

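Markers of cells that resorb or replace mineral were read beside the members. Of 8 osteoclast markers 4 were tested and 0 passed (limma), 1 had an unadjusted p below 0.05, and DESeq2 called 2 and edgeR 0. Over all tested genes these shares were 2.3%, 17.9%, 9.37% and 0.799%. The list summed to 76.4 and 54.1 RPM in mutants 1 and 2 against 319 and 96.2 RPM in controls 1 and 2. Atp6v0d2, the gene of an osteoclast proton pump subunit, had 0.115 and 1.08 RPM in the mutants against 21.6 and 6.75 RPM in the controls (log2 fold change -3.12, adjusted p = 0.0915). Ctsk, the gene of the collagen-cutting protease cathepsin K, had 61.3 and 37.7 RPM against 277 and 64.5 RPM (adjusted p = 0.363), and the phosphatase gene Acp5 had an adjusted p of 0.381. Mmp9 had at most 4.45 RPM, and the calcitonin receptor gene Calcr, a marker of mature osteoclasts, had no read in any library. Ctsk and Atp6v0d2 were highest in control 1, whereas Spp1 was highest in control 2. Of the 8 osteoclast markers, 3 were highest in control 2 as well. Among these were Mmp9 and, by a small margin over control 1, Acp5. The part of osteoclasts in the Spp1 values was not tested.

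Col10a1 stood apart from the other cartilage genes. Of 7 chondrocyte markers, Acan and Hapln1 had no read in any library and Col2a1 had at most 0.964 RPM, while Col10a1 reached 7.54 RPM in mutant 2 (log2 fold change 2.14, adjusted p = 0.206). Col11a2 had 1.89 and 2.69 RPM in the mutants against 1.84 and 2.52 RPM in the controls, and Col9a1 had at most 0.074 RPM. Of 7 stromal progenitor genes tested 1 rose (limma), where 2.3% of all tested genes were called. At an unadjusted p below 0.05 there were 3 of the 7, against 17.9% of all genes, and DESeq2 called 2, against 9.37%. The gene that rose was the dermatopontin gene Dpt, with 666 and 430 RPM in the mutants against 19.0 and 58.1 RPM in the controls (3.96, limma adjusted p = 0.0389). Dpt did not pass without mutant 1 or without mutant 2, where 0 of all genes passed, nor with edgeR.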
